A study of Mus musculus with 6 samples.

Results

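Nfe2l2, the gene of the transcription factor NRF2, its inhibitor Keap1 and 8 genes that NRF2 is known to switch on (Nqo1, Hmox1, Gclc, Gclm, Txnrd1, Srxn1, Gsr and Slc7a11) were followed by mRNA sequencing in 3 mouse embryonic fibroblast lines. The genes were chosen by name, as the factor, its inhibitor and its textbook targets, by a rule that uses no measured value, although earlier results of these data were known. All 10 were among the 27179 genes counted, and all 10 passed the filter on low counts that left 14069 genes for testing. CPN-/- cells carry knockouts of Cry1, Cry2, Per1, Per2, Nr1d1 and Nr1d2, the genes of 6 repressors of the circadian clock, by the study's account. CPN-/- CRY1 and CPN-/- CRY2 cells carry the same 6 knockouts and had mouse CRY1 or CRY2 put back by a virus, and each was grown from a single colony selected with blasticidin, so that each CRY line is 1 clone and the CRY protein cannot be told apart from the clone. The cells were untreated, and 2 libraries were sequenced per line from separate RNA preparations. The p-values therefore measure the spread between preparations of the same line, which may be technical, with the estimate shared by the 3 lines.

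NRF2 is a leucine zipper factor that pairs with small MAF proteins on antioxidant response elements. In unstressed cells KEAP1 hands it to a CUL3 ubiquitin ligase for breakdown, and oxidants or electrophiles that modify KEAP1 let NRF2 accumulate, mostly without a change of its mRNA. Its targets build glutathione, reduce glutathione and thioredoxin, detoxify quinones and break down heme, and fibroblasts in culture use them against oxygen and cystine shortage.

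The start regions of the genes are shown because the targets differed in how they moved between the lines. Windows of 300 bases, from 250 before to 50 after a RefSeq start (GRCm38.p6), were at hand for 7 of the 10 genes: Nfe2l2, Keap1, Nqo1, Gclm, Txnrd1, Srxn1 and Slc7a11. They were searched on both strands for the core of the antioxidant response element, TGACNNNGC (GCNNNGTCA on the other strand), and for the E-box CACGTG, to which CLOCK and BMAL1 bind. After the windows had been read, TGATGCAA (TTGCATCA on the other strand), a composite element known to bind C/EBP and ATF4, was added to the search. Of 32851 such windows, 12.4% held TGACNNNGC, 7.15% held CACGTG and 0.895% held TGATGCAA. The windows with a match are given 5′ to 3′ on the gene's strand with the match in capitals: Slc7a11 (chr3:50443564-50443863, minus strand) with 2 matches to TGATGCAA, and Gclm (chr3:122245307-122245606, plus strand), Nfe2l2 (chr2:75704614-75704913, minus strand), Srxn1 (chr2:152105274-152105573, plus strand) and the second of the 3 Txnrd1 starts (chr10:82858956-82859255, plus strand) with 1 match each to TGACNNNGC.
Slc7a11: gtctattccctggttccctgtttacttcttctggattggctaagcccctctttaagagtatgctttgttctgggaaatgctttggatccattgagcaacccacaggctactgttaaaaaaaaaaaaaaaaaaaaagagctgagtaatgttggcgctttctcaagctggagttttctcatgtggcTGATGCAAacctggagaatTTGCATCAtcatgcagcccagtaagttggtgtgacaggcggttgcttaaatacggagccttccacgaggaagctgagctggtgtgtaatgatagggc
Gclm: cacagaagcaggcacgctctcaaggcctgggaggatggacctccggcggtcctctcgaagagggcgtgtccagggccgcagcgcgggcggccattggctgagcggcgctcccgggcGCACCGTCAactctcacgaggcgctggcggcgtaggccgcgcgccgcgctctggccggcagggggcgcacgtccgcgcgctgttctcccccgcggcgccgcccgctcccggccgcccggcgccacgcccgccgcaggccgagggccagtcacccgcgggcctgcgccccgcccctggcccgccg
Nfe2l2: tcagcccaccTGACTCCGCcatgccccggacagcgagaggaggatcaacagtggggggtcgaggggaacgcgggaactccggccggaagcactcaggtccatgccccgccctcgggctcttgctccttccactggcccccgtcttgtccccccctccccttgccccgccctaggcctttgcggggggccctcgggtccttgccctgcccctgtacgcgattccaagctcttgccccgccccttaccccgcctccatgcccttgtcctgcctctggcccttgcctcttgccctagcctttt
Srxn1: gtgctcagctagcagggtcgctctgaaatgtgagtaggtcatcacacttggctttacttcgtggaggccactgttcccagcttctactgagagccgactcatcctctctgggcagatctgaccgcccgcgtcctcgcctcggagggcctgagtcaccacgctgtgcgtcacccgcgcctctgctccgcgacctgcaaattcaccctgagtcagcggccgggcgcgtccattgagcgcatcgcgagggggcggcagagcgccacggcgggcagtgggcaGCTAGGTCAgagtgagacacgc
Txnrd1: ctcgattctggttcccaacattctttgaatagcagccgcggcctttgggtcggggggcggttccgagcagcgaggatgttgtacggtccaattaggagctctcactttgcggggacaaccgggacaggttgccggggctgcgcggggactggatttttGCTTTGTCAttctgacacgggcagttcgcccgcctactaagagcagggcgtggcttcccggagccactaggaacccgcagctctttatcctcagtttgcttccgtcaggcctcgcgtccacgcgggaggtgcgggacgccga
No match overlapped another. The first base of the matches lay at -66 and -47 from the start in Slc7a11, -134 in Gclm, -240 in Nfe2l2 and -92 in Txnrd1, and at base 29 after the start in Srxn1. None of the 3 motifs was in the Keap1 or Nqo1 windows or at the other Txnrd1 starts, and CACGTG was in no window of these 7 genes, which says only that these letters are not within these bases.

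Library totals ran from 25957409 to 36106949 counts. The CPN-/- replicates differed more (chi-square per degree of freedom 63.0 over genes) than those of CPN-/- CRY1 (4.83) or CPN-/- CRY2 (9.69), and their log2 difference, replicate 2 minus replicate 1, fell with exon length (Spearman rho -0.587 across 12478 genes, which are not independent replicates). Cry1 mRNA was highest in the CPN-/- CRY1 line (165 and 190 counts per 1000000 counts, CPM, against 125 and 115 in CPN-/-), and Cry2 mRNA was highest in the CPN-/- CRY2 line (349 and 351 CPM against 136 and 129). Transcripts of all 6 knocked-out genes were still counted in CPN-/-, at means from 64.2 CPM (Per1) to 132 CPM (Cry2), so their mRNA does not check the knockouts. Of 10 fibroblast markers, 7 were above 10 CPM in every library and 2 (Thy1 and Fap) were under 1 CPM, and all 4 epithelial and all 3 endothelial markers were under 1 CPM. Of 4 leukocyte markers, Ptprc and Adgre1 were under 1 CPM in every library, and Cd68 and Lyz2 lay between 1.15 and 4.23 CPM. Of the fibroblast markers, Pdgfra was lower in the CRY1 line than in its parent (log2 fold change -1.31, adjusted p = 0.00154, edgeR) and Pdgfrb higher (0.88, adjusted p = 0.0101). The other tested fibroblast markers were not called there, and the part of Pdgfra and Pdgfrb in the results was not tested. The 4 smooth muscle markers, mostly Acta2 and Tagln, summed to 1411 to 1788 CPM in CPN-/-, 5120 to 5309 in CPN-/- CRY1 and 2143 to 2383 in CPN-/- CRY2, and the part of this difference in the results was not tested. Fewer cells of a kind and less RNA per cell cannot be told apart in such bulk libraries.

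Slc7a11, the cystine transporter subunit that feeds glutathione synthesis, fell the most of the 10 genes, and only in the CRY1 line did any of the 10 pass the test against CPN-/-. Of the 10 genes, 4 had less mRNA in CPN-/- CRY1 than in CPN-/- (Slc7a11, Hmox1, Gclm and Nqo1) and 0 were higher, by edgeR's quasi-likelihood test (two-sided, Benjamini-Hochberg adjusted p under 0.05 over all 14069 genes). An unadjusted p under 0.05 by this test was reached by 5 of the 10 and by 5664 of all 14069 genes. DESeq2 called 4 of the 10 and 3653 of all genes. With the length trend removed 3 of the 10 were lower and 2 higher, where 2221 of all genes were lower and 2727 higher. In the fit as reported, 24.3% of all genes were called in this comparison, 13.1% lower and 11.2% higher. That split turned over with the length trend removed (44.9% of the calls lower, against 53.9%). With CRY2 put back, 0 of the 10 differed from CPN-/- by edgeR, where 6.66% of all genes were called, 4.08% lower and 2.58% higher. By DESeq2 0 of the 10 and 1277 of all genes were called. An unadjusted edgeR p under 0.05 was reached by 0 of the 10 and by 3436 of all 14069 genes. Between the CRY lines, 3 of the 10 were lower with CRY1 (Slc7a11, Gclm and Nqo1) and 0 higher, where 16.3% of all genes were called, 8.57% lower and 7.72% higher. In a fit of the 4 CRY libraries alone, 6 of the 10 were lower with CRY1 and 2 higher. Of all genes, 3365 were lower and 3473 higher in that fit. The first and second comparisons share the CPN-/- libraries. In the fit as reported the spread was estimated over all 6 libraries, so that of the CPN-/- replicates also enters the comparison of the CRY lines. The median log2 fold change of the 10 genes was -0.16, 0.05 and -0.19 in these 3 comparisons, beside -0.01, -0.01 and 0.00 over all genes.

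**Figure D1:**
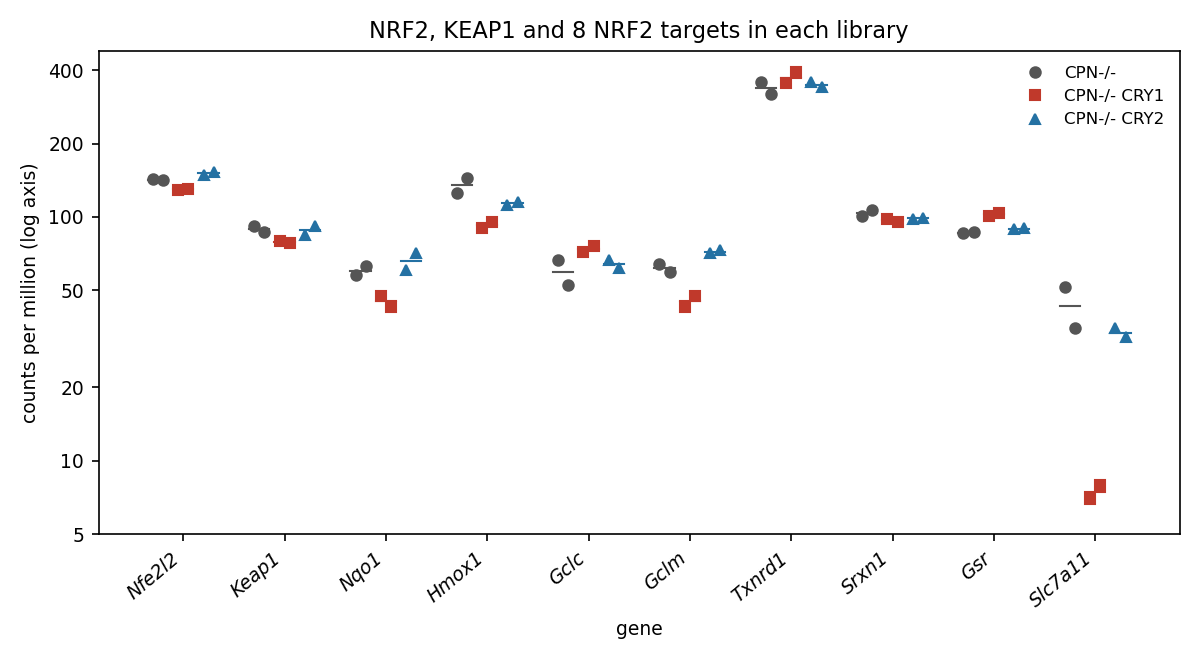
CPM on a log axis for each gene, with 1 point per library (2 per line) and a short bar at the mean of each line. Slc7a11 lies near 7 to 8 CPM in both CPN-/- CRY1 libraries and above 32 CPM in the other 4, and the lines lie closer together in the other 9 genes.

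Nfe2l2 mRNA was at 143 and 141 CPM in CPN-/-, 129 and 130 CPM in CPN-/- CRY1 and 149 and 153 CPM in CPN-/- CRY2. The CRY1 libraries were the lowest and the CRY2 libraries the highest, with no overlap between lines. The differences from CPN-/- were small, a log2 fold change of -0.13 (SE 0.09, adjusted p = 0.294, edgeR quasi-likelihood) in CPN-/- CRY1 and 0.09 (SE 0.09, adjusted p = 0.556) in CPN-/- CRY2, and neither passed the test. The difference of CPN-/- CRY1 from CPN-/- CRY2 was -0.22 (SE 0.09, adjusted p = 0.146, edgeR). It did not pass either, although it was called in 4 of 13 alternatives. Keap1, which encodes the sensor that holds NRF2 down, was at 92.1 and 87.0 CPM in CPN-/-, 79.7 and 78.2 CPM in CPN-/- CRY1 and 84.7 and 92.1 CPM in CPN-/- CRY2. The CRY1 libraries were again below the other 4, with a log2 fold change of -0.18 (SE 0.10, adjusted p = 0.195, edgeR) against CPN-/-, while CPN-/- CRY2 overlapped CPN-/- (-0.02, SE 0.10, adjusted p = 0.912). Exons of Keap1 overlap 510 bases of Gm16754 on the other strand, and the strand setting of the counting was not given in the sources used here.

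Among the partners that share NRF2's binding site, the repressor gene Bach1, whose protein holds Hmox1 down, and Mafk, a small MAF gene, were higher in CPN-/- CRY1. Bach1 was at 46.7 and 32.2 CPM in CPN-/-, 80.0 and 86.8 CPM in CPN-/- CRY1 and 48.0 and 45.0 CPM in CPN-/- CRY2. Bach1 was higher in the CRY1 line than in its parent by 1.08 on the log2 scale (SE 0.17, adjusted p = 0.00728, edgeR), and with a separate normalization for each chromosome it was 0.80 (adjusted p = 0.0144), since genes of chromosome 16, where Bach1 lies, had a median of 0.27 in this comparison. The Bach1 call was lost without either CPN-/- CRY1 library (adjusted p = 0.055 and 0.0732). Mafk was at 24.5 and 23.5 CPM in CPN-/-, 45.1 and 48.2 CPM in CPN-/- CRY1 and 27.3 and 26.0 CPM in CPN-/- CRY2, a log2 fold change of 0.96 (SE 0.10, adjusted p = 0.00134, edgeR) in CPN-/- CRY1. Mafg, another small MAF gene, had values of 0.06 (SE 0.14, adjusted p = 0.78) in CPN-/- CRY1 and 0.33 (SE 0.14, adjusted p = 0.22) in CPN-/- CRY2. Of the 7 listed partners and BACH repressors, calls in CPN-/- CRY1 were 2 higher and 1 lower, where 11.2% and 13.1% of all genes were. There were 0 in CPN-/- CRY2, where 6.66% of all genes were called.

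Around KEAP1, calls in CPN-/- CRY1 among 8 genes of the ligase and of NRF2 turnover were 3 higher and 1 lower. For all genes these shares were 11.2% and 13.1%. In CPN-/- CRY2 0 of the 8 were called, beside 6.66% of all genes. Gsk3b, a kinase that marks NRF2 for another ligase, had a log2 fold change of 0.70 (SE 0.19, adjusted p = 0.0377, edgeR), and Syvn1, an endoplasmic reticulum ubiquitin ligase that targets NRF2, one of 0.55 (SE 0.09, adjusted p = 0.00759). Rbx1, the ring subunit of cullin ligases, had one of -0.43 (SE 0.13, adjusted p = 0.0494). These 3 genes lie on chromosomes 16, 19 and 15, whose genes had medians of 0.27, 0.31 and -0.36 in this comparison, and with normalization by chromosome Gsk3b (0.42, adjusted p = 0.112), Syvn1 (0.22, adjusted p = 0.121) and Rbx1 (-0.035, adjusted p = 0.838) were no longer called. Sqstm1, whose protein p62 can sequester KEAP1, was at 577 and 612 CPM in CPN-/-, 682 and 678 CPM in CPN-/- CRY1 and 543 and 544 CPM in CPN-/- CRY2, and neither difference from CPN-/- passed the test (adjusted p = 0.174 and 0.418, edgeR).

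Nqo1, a reductase that keeps quinones from cycling, was at 57.7 and 62.9 CPM in CPN-/-, 47.6 and 42.9 CPM in CPN-/- CRY1 and 60.8 and 71.4 CPM in CPN-/- CRY2. Both CRY1 libraries lay below the other 4, and CPN-/- CRY2 overlapped CPN-/-. Nqo1 of the CRY1 line was below its level in CPN-/- by -0.41 on the log2 scale (SE 0.12, adjusted p = 0.0472, edgeR) and below that in CPN-/- CRY2 by -0.55 (SE 0.12, adjusted p = 0.0249). Its value in CPN-/- CRY2 against CPN-/- was 0.13 (SE 0.12, adjusted p = 0.505). The first call lies at the threshold: with the replicate number as a block the adjusted p was 0.0547, with each library's trend with exon length removed the change was -0.17 (adjusted p = 0.21), and without any 1 of the 4 CRY libraries the adjusted p was between 0.0934 and 0.303. The second call was lost without any 1 of the 4 CRY libraries (adjusted p between 0.089 and 0.23).

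Of 18 tested quinone, aldehyde and xenobiotic enzymes of the same battery, calls in CPN-/- CRY1 were 5 lower and 1 higher, and those in CPN-/- CRY2 3 lower and 0 higher, with medians of -0.38 and -0.47 on the log2 scale. Akr1b3, an aldose reductase, was at 32.9 and 47.1 CPM in CPN-/-, 22.4 and 23.97 CPM in CPN-/- CRY1 and 24.9 and 26.4 CPM in CPN-/- CRY2, and was called in CPN-/- CRY1 (log2 fold change -0.79, SE 0.17, adjusted p = 0.0197, edgeR). Aox1, an aldehyde oxidase, was the 1 gene called higher there (0.50, SE 0.15, adjusted p = 0.0497), a call lost in 9 of 13 alternatives, which ranged up to an adjusted p of 0.285. The Akr1b3 call was lost in 5 of 13. Cbr3, a carbonyl reductase, was called in CPN-/- CRY2 (-2.28, SE 0.27, adjusted p = 0.00474) at a low level, with 2.45 and 3.19 CPM in CPN-/- and 0.551 and 0.593 CPM in CPN-/- CRY2.

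Hmox1, heme oxygenase 1, which opens heme to biliverdin, iron and carbon monoxide, was at 125 and 144 CPM in CPN-/-, 90.3 and 95.1 CPM in CPN-/- CRY1 and 112 and 115 CPM in CPN-/- CRY2. The lines did not overlap: CPN-/- was highest and CPN-/- CRY1 lowest. Hmox1 of the CRY1 line was below its level in CPN-/- by -0.54 (SE 0.11, adjusted p = 0.0131, edgeR), and its differences of CPN-/- CRY2 from CPN-/- (-0.24, SE 0.10, adjusted p = 0.213) and of CPN-/- CRY1 from CPN-/- CRY2 (-0.30, SE 0.11, adjusted p = 0.105) did not pass. The call was lost in a fit of the 4 libraries of the comparison (adjusted p = 0.0521) and without any 1 CRY library (adjusted p between 0.0522 and 0.138). Of 10 other heme and iron genes, 1 was called lower in CPN-/- CRY1 and 2 lower in CPN-/- CRY2, beside 13.1% and 4.08% of all genes. Slc48a1, a heme transporter on chromosome 15, had a log2 fold change of -0.52 (SE 0.10, adjusted p = 0.0127, edgeR) in CPN-/- CRY1, which was -0.13 (adjusted p = 0.334) with normalization by chromosome. Tfrc, the transferrin receptor, had one of -0.68 (SE 0.15, adjusted p = 0.0421) in CPN-/- CRY2, a call lost in 5 of 13 alternatives (adjusted p up to 0.332).

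The 2 subunits of the glutathione-making ligase differed in their values. Gclc and Gclm encode the catalytic and the modifier subunit of glutamate-cysteine ligase, the first and limiting enzyme of glutathione synthesis. Gclc was at 66.8 and 52.5 CPM in CPN-/-, 71.6 and 75.8 CPM in CPN-/- CRY1 and 66.5 and 62.0 CPM in CPN-/- CRY2. The CRY1 libraries were the highest, but the difference from CPN-/- (0.30, SE 0.13, adjusted p = 0.133, edgeR) did not pass the test, nor did that of CPN-/- CRY2 (0.11, SE 0.13, adjusted p = 0.632). Gclm was at 64.0 and 59.6 CPM in CPN-/-, 42.9 and 47.5 CPM in CPN-/- CRY1 and 70.9 and 73.0 CPM in CPN-/- CRY2. The 3 lines did not overlap, with CPN-/- CRY1 lowest and CPN-/- CRY2 highest, and Gclm in CPN-/- CRY1 was below its level in CPN-/- by -0.45 (SE 0.10, adjusted p = 0.0202, edgeR) and below that in CPN-/- CRY2 by -0.67 (SE 0.10, adjusted p = 0.0066). The value of CPN-/- CRY2 against CPN-/- was 0.22 (SE 0.10, adjusted p = 0.234). The model of Gclm holds stretches nearly identical to Ppia and its pseudogenes and overlaps 2 other genes, so that its counts are uncertain to that extent. Both calls were lost with normalization by chromosome (-0.19, adjusted p = 0.19, and -0.28, adjusted p = 0.125) and without any 1 CRY library.

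Gsr, glutathione reductase, was at 85.8 and 86.4 CPM in CPN-/-, 101 and 104 CPM in CPN-/- CRY1 and 89.1 and 89.7 CPM in CPN-/- CRY2. Both CRY1 libraries were above the other 4, and the difference from CPN-/- (0.26, SE 0.09, adjusted p = 0.0733, edgeR) did not pass the test, although it did with the length trend removed (0.41, adjusted p = 0.0055). The value of Gsr in CPN-/- CRY2 was 0.05 (SE 0.09, adjusted p = 0.71). Txnrd1, thioredoxin reductase 1, was at 358 and 320 CPM in CPN-/-, 353 and 393 CPM in CPN-/- CRY1 and 356 and 340 CPM in CPN-/- CRY2, and the lines overlapped. Its log2 fold changes of 0.14 (SE 0.11, adjusted p = 0.377, edgeR) with CRY1 and 0.04 (SE 0.11, adjusted p = 0.847) with CRY2 did not pass the test, and the latter turned to -0.03 with the length trend removed and -0.08 with normalization by chromosome. Srxn1, sulfiredoxin, which repairs over-oxidized peroxiredoxins, was at 101 and 107 CPM in CPN-/-, 98.3 and 95.7 CPM in CPN-/- CRY1 and 98.4 and 98.8 CPM in CPN-/- CRY2. The Srxn1 differences of -0.09 (SE 0.09, adjusted p = 0.455) and -0.07 (SE 0.09, adjusted p = 0.638, edgeR) on the log2 scale, with CRY1 and with CRY2, turned to 0.06 and 0.08 with the length trend removed.

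Of 14 partners of the thioredoxin, peroxiredoxin and sulfiredoxin system, calls in CPN-/- CRY1 were 2 lower and 1 higher, where 13.1% and 11.2% of all genes were. In CPN-/- CRY2 1 of the 14 was lower, where 4.08% of all genes were. Prdx6, a peroxiredoxin that uses glutathione, was at 236 and 319 CPM in CPN-/-, 152 and 154 CPM in CPN-/- CRY1 and 190 and 201 CPM in CPN-/- CRY2, a log2 fold change of -0.86 (SE 0.15, adjusted p = 0.00953, edgeR) in CPN-/- CRY1. Txnip, the thioredoxin inhibitor, was higher there by 0.83 (SE 0.23, adjusted p = 0.0415), and Prdx5, a mitochondrial and peroxisomal peroxiredoxin, was lower in CPN-/- CRY2 by -0.93 (SE 0.20, adjusted p = 0.0409). Of 13 alternatives, 4 lost the Txnip call, and 6 lost that of Prdx5, normalization by chromosome (adjusted p = 0.0776) among them. Prdx1, a target of NRF2 and a substrate of sulfiredoxin, had values of -0.19 (SE 0.16, adjusted p = 0.397) and -0.15 (SE 0.16, adjusted p = 0.571). Of the superoxide dismutases and catalase, 1 of 4 was called in CPN-/- CRY1, namely Sod3, the extracellular dismutase, which was at 54.5 and 56.8 CPM in CPN-/-, 5.17 and 5.90 CPM in CPN-/- CRY1 and 39.3 and 46.3 CPM in CPN-/- CRY2 (log2 fold change -3.33, SE 0.14, adjusted p = 8.82e-05, edgeR, in CPN-/- CRY1).

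Slc7a11 was at 51.5 and 35.2 CPM in CPN-/-, 6.97 and 7.98 CPM in CPN-/- CRY1 and 34.9 and 32.3 CPM in CPN-/- CRY2. Both CRY1 libraries lay far below the other 4, and the CPN-/- libraries were further apart than those of either CRY line. Its level in CPN-/- CRY1 was 0.172 times that in CPN-/- (log2 fold change -2.54, SE 0.20, adjusted p = 0.000557, edgeR quasi-likelihood) and 0.222 times that in CPN-/- CRY2 (-2.17, SE 0.20, adjusted p = 0.00105). Of all 14069 genes, 199 had a lower log2 fold change against CPN-/-. The difference of CPN-/- CRY2 from CPN-/- was -0.37 (SE 0.18, adjusted p = 0.262), and it was called at -0.62 (adjusted p = 0.00351) with the length trend removed and at -0.61 (adjusted p = 4.45e-07) without CPN-/- replicate 2. Slc7a11 has the longest exon model of the 10 genes, 13922 bases, a stretch of which is nearly identical to tubulin genes, and the 2 CPN-/- libraries differed by exon length, a relation whose part in the CPN-/- values was not tested.

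**Figure D2:**
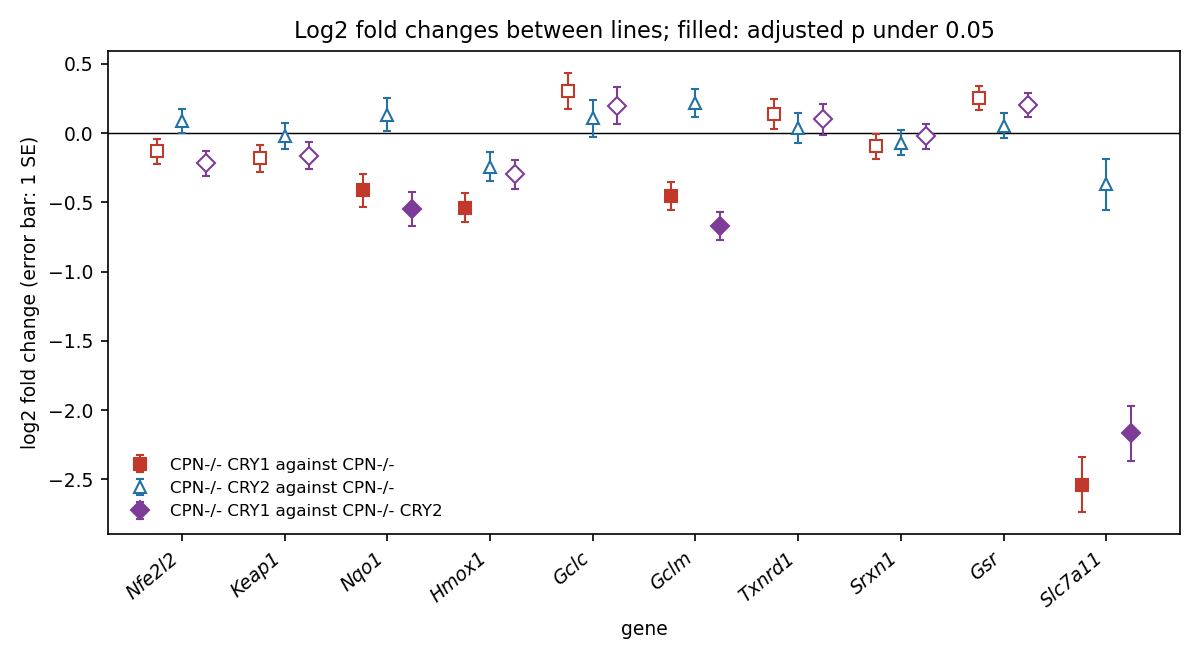
Log2 fold changes of the 10 genes in the 3 comparisons (points, with bars of 1 SE), filled where edgeR's adjusted p was under 0.05. Slc7a11 lies at -2.54 and -2.17 in the comparisons with CPN-/- CRY1, and the other called genes lie between -0.41 and -0.67.

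Slc7a11 and Gclm both lie on chromosome 3, Slc7a11 from base 50364936 to 50499087 on the minus strand and Gclm from 122245487 to 122267215 on the plus strand (GRCm38). The 638 tested genes of chromosome 3 had a median log2 fold change of -0.28 with CRY1 and 0.11 with CRY2 against CPN-/-, and 37.8% of them were called in the former. Within 2 Mb, 15 of 20 genes near Gclm and 9 of 12 near Slc7a11 were below 0 in CPN-/- CRY1, with medians of -0.31 and -0.38. The change of Gclm, at -0.45, was passed by 7 of its 20 neighbours. The change of Slc7a11, at -2.54, was passed by 1 of its 12 neighbours, Mgst2 at -3.86, followed by Mgarp at -2.45, both named after their values were seen. With normalization by chromosome Slc7a11 was still lower in CPN-/- CRY1 (-2.27, adjusted p = 0.000573, edgeR). The part of the chromosome in these differences beyond that fit was not tested.

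**Figure D3:**
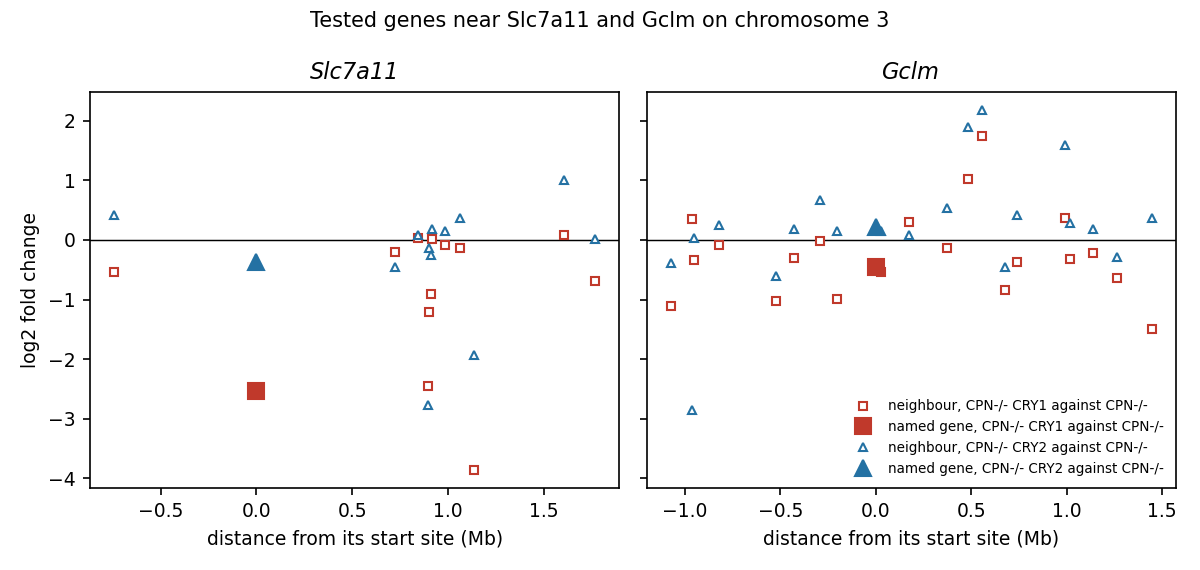
Log2 fold changes against CPN-/- of the tested genes within 2 Mb of Slc7a11 (12 genes) and Gclm (20 genes) by distance of their starts in Mb, with the named gene as a large filled symbol at 0, squares for CPN-/- CRY1 and triangles for CPN-/- CRY2. Gclm in CPN-/- CRY1 lies among its neighbours, whose median is -0.31, and Slc7a11 lies below all but 1 of its neighbours.

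Per base of exon the order of the genes differed from that of the counts. In reads per kilobase of exon and 1000000 counts (RPKM), Hmox1 had the highest mean level in CPN-/- (76.9), followed by Txnrd1 (47.8), Nqo1 (38.8), Nfe2l2 (37.4), Srxn1 (36.7), Gsr (31.3), Keap1 (19.1), Gclc (15.8), Gclm (9.83) and Slc7a11 (3.11). In CPN-/- CRY1 the means of Hmox1 (52.9) and Txnrd1 (52.6) were side by side, and Gsr (37.3), Srxn1 (34.4) and Nfe2l2 (34.2) stood above Nqo1 (29.1). In CPN-/- CRY2 the order of the first 3 genes was that of CPN-/-: Hmox1 (65.0), Txnrd1 (49.1) and Nqo1 (42.6). The lengths are unions of all annotated exons, so levels of genes with long or rare exons, such as Slc7a11, whose model begins upstream of its RefSeq start, are understated, and neighbours in the order were not tested against each other.

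The other genes around glutathione showed the widest range. Of 14 tested genes of glutathione synthesis, cystine supply and glutathione peroxidases, 2 were called lower in CPN-/- CRY1 and 1 in CPN-/- CRY2. These shares were 13.1% and 4.08% over all genes. Cth, cystathionine gamma-lyase, which makes cysteine within the cell, was at 11.4 and 12.7 CPM in CPN-/- and 1.25 and 1.33 CPM in CPN-/- CRY1 (log2 fold change -3.22, SE 0.16, adjusted p = 0.000138, edgeR). In CPN-/- CRY2 it had 2 counts over both libraries against 693 in CPN-/-, 0.308% of the CPN-/- level after library size (95% exact interval 0.0372% to 1.12%, counting error only). Glrx, a glutaredoxin, was lower in CPN-/- CRY1 by -0.60 (SE 0.17, adjusted p = 0.0448), a call lost in 5 of 13 alternatives, with values from -0.83 to -0.34 when 1 library was left out. One listed symbol, Opla, matched no counted gene.

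Of 17 tested glutathione transferases and exporters, the calls in CPN-/- CRY1 were 10 lower and 3 higher. The shares over all genes were 13.1% and 11.2%. The 17 genes had a median log2 fold change of -1.003, which is the value of Gstm1. Of those lower with CRY1, Gstm1, Gstm2, Gstm5, Gstm6 and Mgst2 lie on chromosome 3, where 37.8% of genes were called (median -0.28). Gsta4, Gstt1, Gstt3, Gstz1 and Abcc3, also lower, lie on other chromosomes. For the list as a whole, the part of chromosome 3 was not tested. In CPN-/- CRY2 the calls were 3 lower and 0 higher, with a median of -0.19, where 4.08% and 2.58% of all genes were called. Gsta4, which conjugates lipid aldehydes, was at 20.7 and 27.4 CPM in CPN-/-, 6.59 and 5.42 CPM in CPN-/- CRY1 and 11.2 and 10.4 CPM in CPN-/- CRY2, and was called in both (-2.00, SE 0.18, adjusted p = 0.000835, and -1.15, SE 0.17, adjusted p = 0.0113, edgeR). Gstm2, a mu class transferase on chromosome 3, was at 37.7 and 45.1 CPM in CPN-/-, 11.6 and 10.3 CPM in CPN-/- CRY1 and 55.8 and 58.2 CPM in CPN-/- CRY2. It was lower in CPN-/- CRY1 (-1.91, SE 0.13, adjusted p = 0.000354), and still so with normalization by chromosome (-1.65, adjusted p = 0.000731), and its value in CPN-/- CRY2 was 0.46 (SE 0.12, adjusted p = 0.0799). Mgst3, a microsomal transferase, and Abcc5, an export pump, were called higher in CPN-/- CRY1 (0.80, SE 0.22, adjusted p = 0.0409, and 0.63, SE 0.18, adjusted p = 0.047), and each lost the call in 6 of 13 alternatives, normalization by chromosome among them (0.68, adjusted p = 0.0852, and 0.35, adjusted p = 0.155). Of 7 enzymes that form NADPH, which the reductases above use, 1 was called, Idh1 at 0.53 (SE 0.11, adjusted p = 0.0146) in CPN-/- CRY1, where 11.2% of all genes were called higher.

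Slc7a11 is also a known target of ATF4, the factor of the amino acid response. Of the 8 genes listed for ATF4 and this response, 4 were called lower in CPN-/- CRY1 and 0 in CPN-/- CRY2, with medians of -0.56 and -0.25 on the log2 scale. Between the CRY lines 3 were lower with CRY1. The shares of all genes called lower in these 3 comparisons were 13.1%, 4.08% and 8.57%. Chac1, which degrades glutathione, was at 54.0 and 58.5 CPM in CPN-/-, 27.5 and 26.8 CPM in CPN-/- CRY1 and 45.5 and 47.7 CPM in CPN-/- CRY2 (log2 fold change -1.05, SE 0.10, adjusted p = 0.000916, edgeR, in CPN-/- CRY1). Trib3, a pseudokinase that dampens ATF4, was at 114 and 141 CPM in CPN-/-, 69.9 and 62.9 CPM in CPN-/- CRY1 and 109 and 106 CPM in CPN-/- CRY2 (-0.94, SE 0.13, adjusted p = 0.00401). Atf4 itself was at 692 and 918 CPM in CPN-/-, 586 and 568 CPM in CPN-/- CRY1 and 765 and 777 CPM in CPN-/- CRY2, and its difference of -0.48 (SE 0.14, adjusted p = 0.052) in CPN-/- CRY1 did not pass the test. Atf4 lies on chromosome 15, and this value was -0.087 (adjusted p = 0.643) with normalization by chromosome and -0.47 (adjusted p = 0.0473) with the replicate block.

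**Figure D4:**
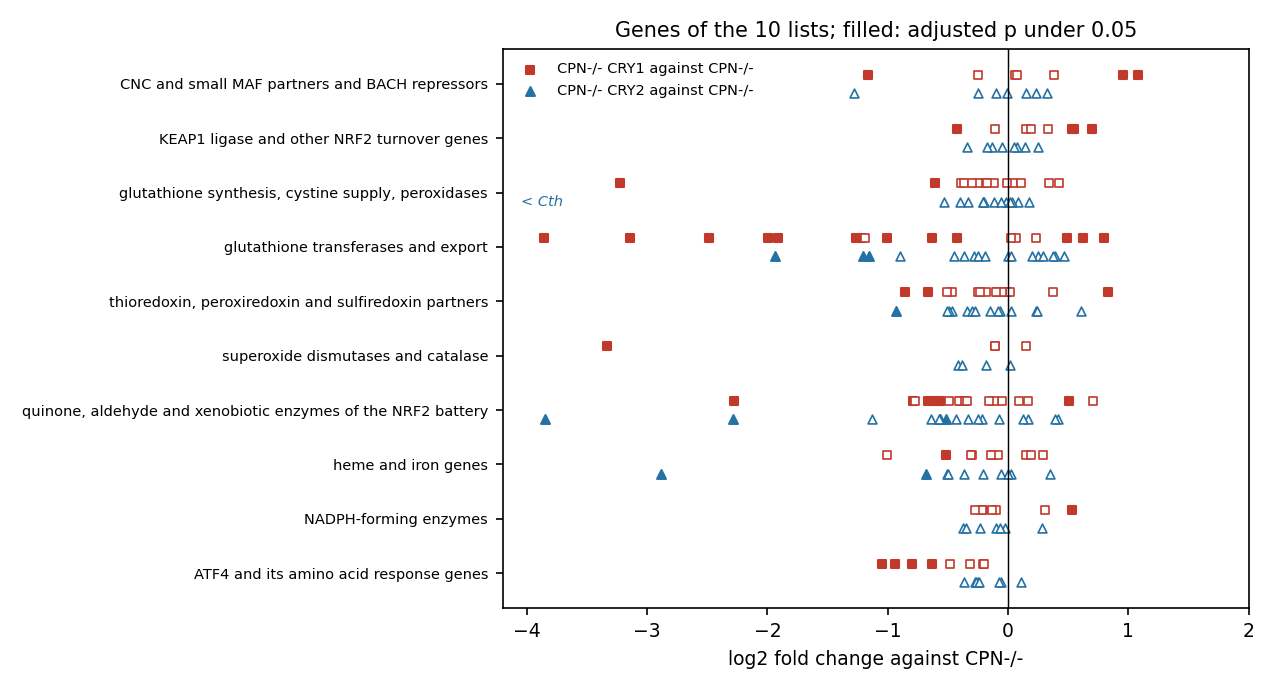
Log2 fold changes against CPN-/- of the 107 tested genes in 10 lists around NRF2, squares for CPN-/- CRY1 and triangles for CPN-/- CRY2, filled where edgeR's adjusted p was under 0.05, with Cth in CPN-/- CRY2 beyond the left edge. The calls in CPN-/- CRY1 are 27 lower and 11 higher, and those in CPN-/- CRY2 are 10 lower and 0 higher.

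Against CPN-/-, the median log2 fold change over all 10 lists was -0.19 with CRY1 and -0.20 with CRY2, beside -0.01 over all genes in both. Of the 107 genes, 27 were called lower in CPN-/- CRY1, where 13.1% of all genes were, and in CPN-/- CRY2, 10 of 107, where 4.08% were. Called higher were 11 of the 107 in CPN-/- CRY1, where 11.2% of all genes were, and 0 in CPN-/- CRY2, where 2.58% were. Between the 2 CRY lines, 15 were lower and 15 higher in CPN-/- CRY1, where 8.57% and 7.72% of all genes were.

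The 4 calls in CPN-/- CRY1 differed in how they held. Slc7a11 was called under all 13 alternatives to the fit, with log2 fold changes from -2.78 to -2.24. Hmox1 was called in 8 of 13, Gclm in 7 and Nqo1 in 6, and all 3 stayed below 0 in each.

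**Figure D5:**
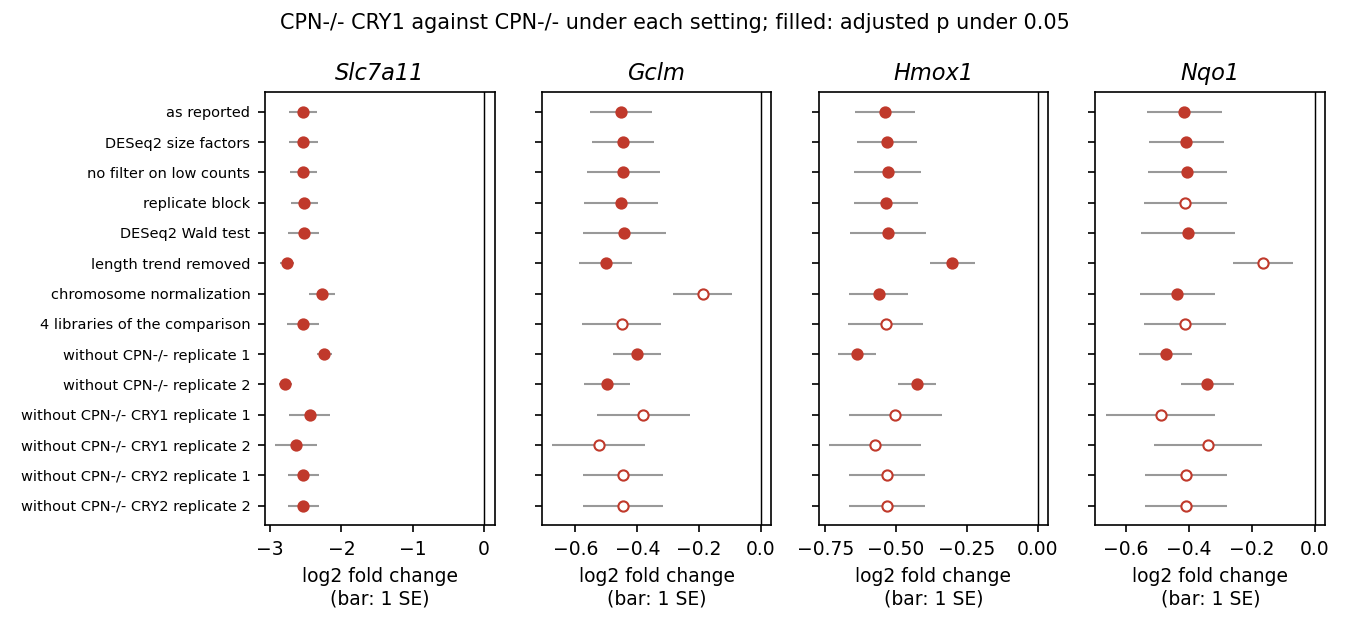
Log2 fold change in CPN-/- CRY1 against CPN-/- (points, with bars of 1 SE) of the 4 called genes under the fit as reported and 13 alternatives, filled where the adjusted p was under 0.05; each panel has its own scale. Slc7a11 is filled throughout, and the other 3 genes are open in 5 to 7 of the alternatives.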

How the data were processed

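Per the study's methods and the submitters' notes, polyA RNA of cells near confluence was made into stranded paired-end libraries, mapped to mm10 with STAR and counted per gene with featureCounts; the annotation and strand setting were not given in the sources used here. The authors deposited 1 table of raw counts per library, keyed by NCBI Gene identifier. Symbols and positions came from RefSeq (symbols for 25275 of 27179 genes), and strands and exon lengths from GENCODE vM21 (lengths for 21572 genes). The counts of 6 libraries were fitted together by line with edgeR 4.0.16 (R 4.3.3: filterByExpr minimum 10, TMM, robust quasi-likelihood F test, two-sided) and Benjamini-Hochberg adjustment over 14069 genes, and a gene was called at an adjusted p under 0.05. CPM (counts per 1000000) use TMM-scaled library sizes. Alternatives were DESeq2 1.42.0 (Wald test or size factors), no filter, a replicate block, 4 libraries, each library left out, a loess correction for exon length (span 0.5) and TMM within each chromosome. The scripts were tested on artificial counts. The members and lists were chosen with earlier results of these data known. Beside the 10 members, each list names at most 2 genes per direction, those with the greatest change in either CRY line among genes called in at least 1 of them with a mean of at least 50 counts and all 4 library pairs in 1 direction, plus Bach1, Mafg, Sqstm1, Atf4 and Prdx1. Exon models with matches of at least 95% identity over 150 bases were taken as nearly identical.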

Additional observations from a re-analysis of the deposited data

How the results depend on the processing

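With 2 libraries per line a call rests on few residual degrees of freedom, and whether depth limited the calls was not tested. Over the 10 genes, 3 comparisons and 13 alternatives, 325 of 390 values kept their direction and side of the threshold, 27 lost a call, 29 gained one and 9 reversed. Most of the 390 values could not lose a call, since the fit as reported had made none there. All 27 losses fell on Nqo1, Hmox1 and Gclm. The number of the 10 genes called, 4 for the CRY1 line against its parent, 0 for the CRY2 line against its parent and 3 for CRY1 against CRY2, was 1 and 8 in the first and the last of these in fits of 4 libraries, 1 and 5 in the middle and the last with the length trend removed, and 1 to 7, 0 to 3 and 1 to 8 with 1 library left out. The number of all genes called, 3423, 937 and 2292, was 1798, 473 and 6838 with 4 libraries, 1795 and 3677 in the middle and the last with the length trend removed, 1474 in the last with normalization by chromosome, and 663 to 8980, 199 to 8046 and 475 to 6897 with 1 library left out, highest in each without CPN-/- replicate 1. Removing the length trend turned the split of all called genes from 1844 lower and 1579 higher to 2221 lower and 2727 higher for the CRY1 line against its parent, and from 574 lower and 363 higher to 764 lower and 1031 higher for the CRY2 line. The causes of these changes were not tested.

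The replicate numbers were not shown to pair the libraries: the differences of replicates 1 and 2 correlated across genes by -0.08 (CPN-/- and CPN-/- CRY1), 0.14 (CPN-/- and CPN-/- CRY2) and -0.03 (both CRY lines). With the replicate block 3, 0 and 3 of the 10 genes and 3458, 977 and 2188 of all genes were called.

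Some directions reversed. For the CRY1 line against its parent, removing the length trend gave Srxn1 0.060 and Prdx5 0.16, and leaving out 1 library gave -0.33 to 0.30 for Prdx5, -0.13 to 0.29 for Mafg and -0.40 to 0.069 for Prdx1. For the CRY2 line against its parent, removing the length trend gave Keap1 0.023, Txnrd1 -0.033, Srxn1 0.081, Slc48a1 0.15 and Atf4 0.12, normalization by chromosome gave Txnrd1 -0.083, and leaving out 1 library gave -0.071 to 0.045 for Keap1, -0.048 to 0.29 for Gclc, -0.033 to 0.12 for Txnrd1, -0.19 to 0.11 for Rbx1, -0.012 to 0.58 for Gsk3b, -0.083 to 0.088 for Slc48a1, -0.25 to 0.16 for Atf4 and -0.36 to 0.11 for Prdx1. For CRY1 against CRY2, normalization by chromosome gave Rbx1 0.070, Syvn1 -0.013, Abcc5 -0.023 and Atf4 0.029, and leaving out 1 library gave -0.0057 to 0.23 for Aox1. Of these results, Syvn1 between the CRY lines was the 1 that had been called (0.47, adjusted p = 0.0154, edgeR).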

Other observations

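The mu class glutathione transferases, which lie together on chromosome 3, are given here after their values were seen. Gstm1 was at 95.1 and 108 CPM in CPN-/-, 53.0 and 48.1 CPM in CPN-/- CRY1 and 113 and 128 CPM in CPN-/- CRY2. Gstm5 was at 28.1 and 44.1 CPM in CPN-/-, 16.4 and 14.6 CPM in CPN-/- CRY1 and 24.8 and 28.1 CPM in CPN-/- CRY2. Both were lower in the CRY1 line than in its parent (log2 fold changes -1.003 and -1.22, adjusted p = 0.00235 and 0.00963, edgeR), and in CPN-/- CRY2 they had values of 0.25 and -0.45 (adjusted p = 0.243 and 0.242). Between the CRY lines Gstm1 was lower with CRY1 (-1.25, adjusted p = 0.0012), and the values of Gstm5 (-0.77, adjusted p = 0.0535) and Gstm7 (-0.82, adjusted p = 0.456) did not pass the test. These paralogs are similar in sequence, and the sharing of reads between them was not tested.

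Osgin1, an oxidative stress growth inhibitor and NRF2 target also picked after its values were seen, followed the order of Nqo1 and Gclm. It was at 20.4 and 19.3 CPM in CPN-/-, 12.2 and 12.8 CPM in CPN-/- CRY1 and 21.1 and 22.1 CPM in CPN-/- CRY2, and in the CRY1 line it was below CPN-/- by -0.67 (SE 0.11, adjusted p = 0.00666, edgeR) and below that in CPN-/- CRY2 by -0.79 (adjusted p = 0.00422). In the ATF4 list, Asns and Phgdh, enzymes of asparagine and serine synthesis, were below CPN-/- in the CRY1 line by -0.80 and -0.63 (adjusted p = 0.00497 and 0.0289, edgeR), and had values of -0.37 and -0.24 in CPN-/- CRY2 (adjusted p = 0.124 and 0.361). Osgin1, Asns and Phgdh were not followed through the alternative fits. The part of their chromosomes in these values was not tested.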
